A study of Homo sapiens with 38 samples.

Results

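The 48 genes described here lie on the long arm of chromosome 15 and were listed because this region gave lower signals in 16R6-4, a drug-resistant clone, than in A375, the melanoma line it came from. Each gene was represented by 1 probe set, the one with the highest mean log2 signal among those naming that gene alone, and was compared between the lines within each of 7 treatments. Of the 48 genes, 46 were measured in this way, out of 18063 genes in the whole series and 574 on chromosome 15. The other 2 were not analysed here, among them MTHFS, whose probe sets also name a second gene. The genes were chosen by their difference in signal between the lines on these arrays, so that difference is given below as a description with no test. All 46 measured genes passed the filter on low signals.

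Chromosome 15 is acrocentric, with ribosomal RNA genes on its very short arm and its protein-coding genes on the long arm. The long arm carries genes of many unrelated processes, among them SMAD3 of the TGF-beta pathway, the SRC inhibitor kinase CSK, the melanosome motor MYO5A and the lysosomal protease CTSH. Many of these proteins work inside complexes whose other subunits are encoded on other chromosomes.

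The series held 38 one-colour expression arrays, 20 of 16R6-4 and 18 of A375. A375 is an established human melanoma line that depends on mutant BRAF, and 16R6-4 is 1 clone derived from it that is resistant to GSK2118436, an inhibitor of the BRAF kinase (called GSK436 here). GSK1120212 (GSK212 here) inhibits MEK, the kinase below BRAF. Both lines grew in RPMI1640 with 10% serum and were treated for 24 hours with DMSO (the vehicle), 0.1 µM GSK436, 1 µM GSK436, 10 nM GSK212, 30 nM GSK212, 10 nM GSK212 plus 0.1 µM GSK436, or 10 nM GSK212 plus 1 µM GSK436, which gave 14 groups of 2 or 3 arrays. Nothing in the labels ties the arrays of a group to separate cultures, so p-values cover only the spread between these arrays, which may be technical, and their small number limits the precision. With 1 clone, what belongs to resistance and what belongs to this clone cannot be told apart.

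Array medians of the signal ranged from 21.58 to 46.31 in 16R6-4 and from 25.42 to 52.39 in A375. The ratio of 3' to 5' actin probe sets, a measure of RNA quality, was 3.72 to 44.98 in 16R6-4 (median 12.4) and 4.26 to 37.5 in A375 (median 19.2), and it was above 20 on 15 arrays. Of the melanocyte lineage markers, SOX10 had signals of 1.96 to 20.96 in 16R6-4 and 427 to 1414 in A375, whereas MITF had 864 to 1679 in 16R6-4 and 283 to 734 in A375. The pigment genes PMEL, MLANA, TYR and TYRP1 stayed below 79 on every array of both lines, with medians of 7.55 to 17.09 in 16R6-4 and 8.78 to 28.5 in A375. S100B had a median of 2.34 in 16R6-4 and 59.65 in A375. The marker SOX10 was therefore near the bottom of the scale in the clone, whose label gives it as a melanoma derivative.

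With DMSO, the listed genes were lower in 16R6-4 by a median of 0.52 on the log2 scale of signal plus 2.8, which is 0.699 times the A375 level. Of the 46 genes, 43 were below 0, 24 were below -0.50 and 4 were below -1, and the values ran from -1.41 to 0.11. The median over all 18063 genes in the same comparison was -0.10, and 57% of them were below 0. On every array of 16R6-4 the median log2 signal of the listed genes (8.24 to 8.64) was below that on every array of A375 (8.68 to 9.16). Relative to the median over all genes on the same array, the lines overlapped, at 1.78 to 2.52 in 16R6-4 and 2.03 to 2.91 in A375. The genes were chosen on these signals, so nothing is read from the separation. Because each array measured the RNA of a whole culture, fewer cells with a given RNA and less of it per cell cannot be told apart.

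The difference was not equally present in all treatments. The listed genes had a median line difference, 16R6-4 minus A375, of -0.40 with 0.1 µM GSK436, -0.24 with 1 µM GSK436, -0.41 with 10 nM GSK212, -0.49 with 30 nM GSK212, -0.43 with 10 nM GSK212 plus 0.1 µM GSK436 and -0.33 with 10 nM GSK212 plus 1 µM GSK436. The number below 0 was 35, 28, 40, 41, 41 and 32 of 46 in that order. Of all genes, 62.5%, 64.2%, 53.7%, 55.6%, 55.4% and 60% were below 0. All genes together had medians of -0.34, -0.46, -0.07, -0.09, -0.09 and -0.22. With 1 µM GSK436 the listed genes were thus less far below 0 than all genes. They were further below 0 there than genes at least as bright as the dimmest listed gene, whose median was 0.03. After quantile normalization the medians with 1 µM GSK436 were -0.30 for the listed genes and -0.09 for all genes. Averaged over the 7 treatments the median was -0.45, against -0.25 over all genes, and 37 listed genes were below 0, as were 65.6% of all genes. In the other 9 listed genes the label of the set does not hold on average, and 25 listed genes were below 0 in every treatment. The actin ratio also differed between the lines by treatment, with group means of 19.9 in 16R6-4 and 37.3 in A375 with 0.1 µM GSK436, 10.9 and 27.9 with 1 µM GSK436, and 8.16 and 22.3 with 10 nM GSK212 plus 1 µM GSK436, but 5.47 and 7.76 with DMSO. With the ratio as a covariate, the median of the listed genes was -0.5251 with DMSO and -0.4543 over the 7 treatments, but its part in the differences between treatments was not tested.

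**Figure D1:**
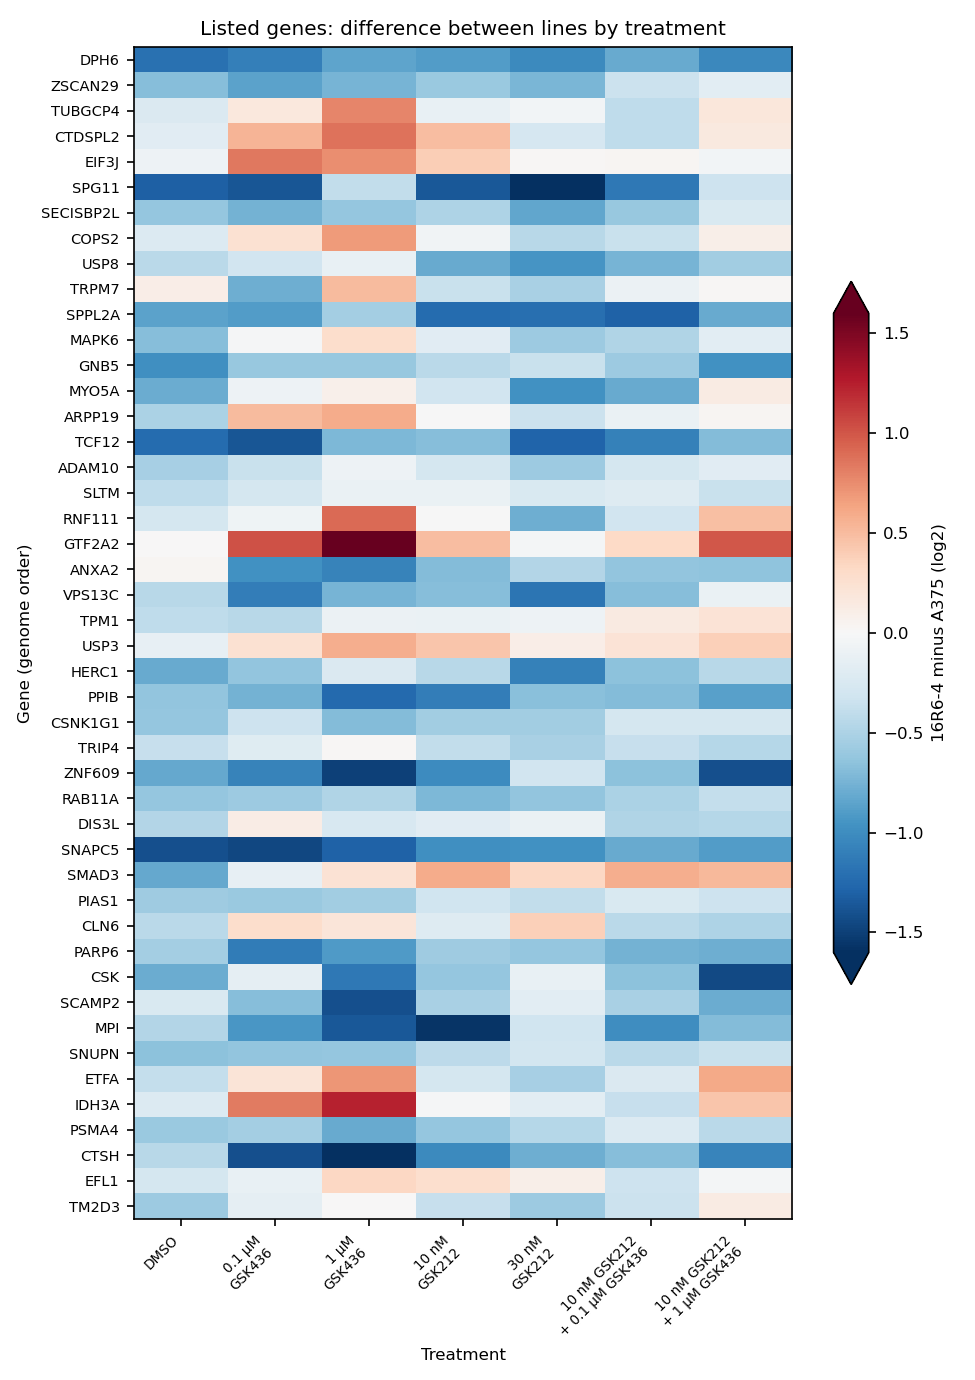
Line difference of the 46 listed genes (rows, in genome order) in each of the 7 treatments (columns), as 16R6-4 minus A375 on the log2 scale. Blue stands for lower and red for higher in 16R6-4. The DMSO column is blue for 43 genes, whereas the column for 1 µM GSK436 holds 28 genes below 0 and reaches 1.64 at GTF2A2.

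These values depend on how arrays are put on one scale. With each array centred on its own median, the median over all genes moved to 0.17 with DMSO, 0.33 with 0.1 µM GSK436, 0.29 with 1 µM GSK436 and 0.29 with 10 nM GSK212 plus 1 µM GSK436. The listed genes then had a median of -0.25 with DMSO, which is -0.42 relative to all genes. After centring, their median was above 0 in 3 treatments, at 0.28 with 0.1 µM GSK436, 0.50 with 1 µM GSK436 and 0.18 with 10 nM GSK212 plus 1 µM GSK436. Over the 7 treatments, 24 of the 46 genes stayed below 0 after centring, and the averages that turned above 0 were those of MAPK6, TRPM7, RNF111, COPS2, ADAM10, CLN6, TM2D3, MYO5A, TPM1, SLTM, TRIP4, DIS3L and EFL1. Quantile normalization kept the median below 0 in every treatment, from -0.49 with 30 nM GSK212 to -0.30 with 1 µM GSK436. It turned the averages of TRPM7, RNF111, CLN6 and EFL1 above 0 and those of ARPP19 and ETFA below 0. Averaging all probe sets of a gene turned CTDSPL2 and TUBGCP4 below 0 and COPS2 above it, and a block for the replicate number turned COPS2 and RNF111 above 0. Leaving out 1 array turned COPS2, EFL1, RNF111 or ETFA, whose averages lay near 0, in some cases.

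Whether all arrays of the 2 lines were separate was counted for each gene. With DMSO, 30 of the 46 listed genes had every 16R6-4 array below every A375 array, as did 19.9% of all genes. In each of the 7 treatments 8 listed genes were separate in this direction, against 3.53% of all genes. Over all 38 arrays at once there were 4, namely SNAPC5, DPH6, PPIB and RAB11A, against 0.841% of all genes. The line difference chose the genes, so nothing is read from these shares.

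The listed genes had values close to those of their neighbours. The other 528 genes of chromosome 15 had a median line difference of -0.48 with DMSO, with 429 below 0, and of -0.48 over the 7 treatments. Among genes at least as bright as the dimmest listed gene, a comparison set after the signals were seen, the 221 other genes of chromosome 15 had medians of -0.49 with DMSO and -0.40 over the treatments. The 8331 genes of that brightness on all chromosomes had medians of -0.03 and 0.03. Over the treatments, chromosome 15 had the lowest median of 23 chromosomes at -0.48, just below chromosome 20 at -0.48 and followed by chromosome 7 at -0.39, and chromosome 18 had the highest at 0.01. Among the brighter genes chromosome 20 came first at -0.44 and chromosome 15 next at -0.40.

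Along chromosome 15 the listed genes stood at places 65 to 572 of the 574 measured genes, in 35 runs with 462 other genes between the first and the last. The 46 listed genes and the 221 other genes of at least their brightness, over the whole chromosome, were cut into 4 stretches of like gene number. From the first stretch to the last, the listed and the other genes had medians over the treatments of -0.98 (1 listed gene, DPH6) and -0.43, -0.30 (22 listed genes) and -0.34, -0.59 (16) and -0.49, and -0.27 (7) and -0.36. Neighbouring genes often differed. EIF3J at 0.27 stood next to SPG11 at -1.07, USP3 at 0.26 next to HERC1 at -0.61, and TRPM7 at -0.16 next to SPPL2A at -0.98. Of the genes of chromosome 15 outside the list, those with the largest negative values over the treatments were the imprinted genes NDN (-5.15) and MAGEL2 (-3.48), followed by GCHFR (-3.17) and BMF (-2.89, but -0.48 with DMSO). NDN had signals of 0.92 to 34.71 in 16R6-4 and 338 to 678 in A375, and MAGEL2 1.04 to 31.23 in 16R6-4 and 39.2 to 348 in A375. The largest positive values over the treatments were those of LOXL1 (2.63), MYEF2 (1.11), MAP2K1 (0.98) and LYSMD2 (0.90). LOXL1 signals were 24.49 to 112.68 in 16R6-4 and 0.9 to 35.48 in A375. The dim values of NDN, MAGEL2 and LOXL1 are not shown to be above background, so the size and rank of these differences depend on the added 2.8. MAP2K1, which encodes MEK1, a target of GSK212, had a median signal of 621 in 16R6-4 (285 to 930.13) and 285 in A375 (112 to 1012), with overlapping ranges. Its line difference with DMSO was 0.18.

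**Figure D2:**
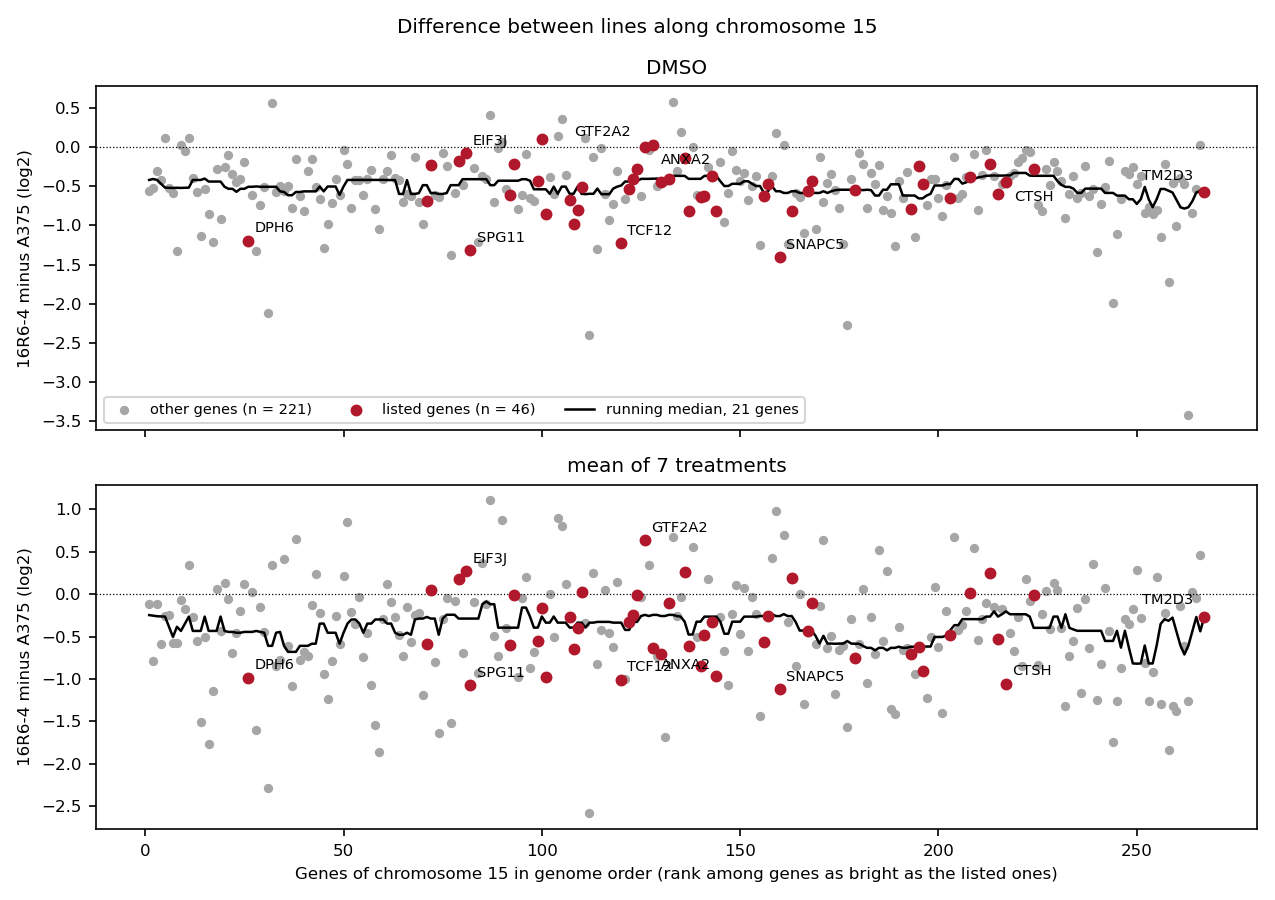
Line difference (16R6-4 minus A375, log2) of the genes of chromosome 15 against their rank in genome order, with DMSO above and as the mean of 7 treatments below, for the 46 listed genes (red) and 221 other genes of at least their brightness (grey). The line is a running median over 21 genes; it stays below 0 along the whole chromosome in both panels, and single genes such as GTF2A2 (0.63) and SNAPC5 (-1.12) stand apart from it.

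The promoters of 4 listed genes are shown because these genes mark the ends of the range described below, SNAPC5 as the lowest in the clone, GTF2A2 as the highest, ANXA2 as near 0 with DMSO but not over the treatments, and SMAD3 as one whose difference turned with treatment. Each run is the 250 bases before the RefSeq start of the gene in GRCh38.p14, 5′ to 3′ on the gene's strand. Capitals show matches on either strand to the ETS core CCGGAAG, the AP-1-like pattern TGANTCA or the E-box CACGTG. The AP-1-like pattern takes any base at N and is looser than the AP-1 site itself. The SNAPC5 run is chr15:66497763-66498012 (minus strand), that of GTF2A2 is chr15:59657516-59657765 (minus), that of ANXA2 is chr15:60397987-60398236 (minus) and that of SMAD3 is chr15:67065352-67065601 (plus).
SNAPC5: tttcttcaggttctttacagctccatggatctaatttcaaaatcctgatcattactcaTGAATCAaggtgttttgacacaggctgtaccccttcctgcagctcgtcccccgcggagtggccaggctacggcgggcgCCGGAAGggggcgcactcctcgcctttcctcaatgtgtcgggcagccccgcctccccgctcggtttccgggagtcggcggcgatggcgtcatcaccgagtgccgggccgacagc
GTF2A2: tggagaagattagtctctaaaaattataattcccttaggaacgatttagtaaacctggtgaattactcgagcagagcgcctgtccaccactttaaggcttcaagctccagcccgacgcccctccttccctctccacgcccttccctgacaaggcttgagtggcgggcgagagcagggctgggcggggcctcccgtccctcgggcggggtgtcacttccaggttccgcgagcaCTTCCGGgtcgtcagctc
ANXA2: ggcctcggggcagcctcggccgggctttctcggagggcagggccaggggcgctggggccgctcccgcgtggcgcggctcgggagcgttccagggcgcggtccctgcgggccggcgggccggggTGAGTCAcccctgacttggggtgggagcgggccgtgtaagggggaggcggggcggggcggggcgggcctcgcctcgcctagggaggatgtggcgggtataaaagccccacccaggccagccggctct
SMAD3: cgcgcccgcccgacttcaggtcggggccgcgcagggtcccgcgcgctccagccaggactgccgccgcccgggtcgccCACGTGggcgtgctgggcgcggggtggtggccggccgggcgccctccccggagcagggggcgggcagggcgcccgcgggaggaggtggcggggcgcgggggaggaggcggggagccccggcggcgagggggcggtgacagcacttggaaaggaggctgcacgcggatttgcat
The capitals mark an AP-1-like match (TGAATCA) 192 bases and an ETS match 114 bases before the SNAPC5 start. They also mark an ETS match at 18 bases for GTF2A2, an AP-1-like match (TGAGTCA) at 127 bases for ANXA2 and an E-box at 173 bases for SMAD3.

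RefSeq gave a promoter for 44 of the 46 listed genes. The ETS letters were found in 13 of them (29.5%), against 12.7% of 14156 promoters of all measured genes and 18.6% of 7031 promoters of genes as bright as the listed ones. The AP-1-like letters, with any base at N, were found in 3 (6.82%), against 4.84% and 3.6%. The E-box was found in 5 (11.4%), against 7.98% and 9.73%. The listed promoters held a median of 25 CpG pairs in the 250 bases, against 18 over all measured genes and 22 over those of like brightness. The motifs do not overlap in letters, and a match is a description of the sequence and not a binding site.

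Among the 8 genes of transcription, 7 were below 0 with DMSO and 6 over the treatments, and the group held both ends of the range. SNAPC5, the small subunit of the complex that binds the promoters of small nuclear RNA genes and activates them, had signals of 363 and 343 in 16R6-4 and 958, 863 and 1005 in A375 with DMSO. Over all arrays SNAPC5 ran from 343 to 651 in 16R6-4 (median 493) and from 845 to 1136 in A375 (median 998). Its difference was -1.41 with DMSO and -1.12 ± 0.05 (SE) over the treatments, and no array of one line reached into the other. TCF12, a basic helix-loop-helix transcription factor, had 547 and 562 in 16R6-4 and 1303, 1294 and 1310.04 in A375 with DMSO. TCF12 averaged -1.01 ± 0.07 over the treatments, with the lines separate in each of them. GTF2A2, the small subunit of the general factor TFIIA, had 2683 and 3727 in 16R6-4 and 3636, 3789 and 2269 in A375, so that the lines overlapped with DMSO. Over all arrays GTF2A2 ran from 1299 to 3727 in 16R6-4 (median 2630.5) and from 829 to 3789 in A375 (median 1717), and its difference was 0.01 with DMSO and 0.63 ± 0.11 over the treatments. The 2 other, dimmer probe sets of GTF2A2 went the opposite way, at -0.12 and -0.30 over the treatments. The remaining genes of the group had differences over the treatments of -0.97 for ZNF609, -0.59 for ZSCAN29, -0.32 for TRIP4 of the ASC-1 coactivator complex, -0.24 for SLTM and 0.17 for CTDSPL2.

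The 10 genes of membrane traffic, the lysosome and proteolysis were below 0 in 9 cases with DMSO and in 10 over the treatments, with medians of -0.49 and -0.63. SPG11, whose protein spatacsin serves the renewal of lysosomes, had 163 and 171 in 16R6-4 and 437, 445 and 379 in A375 with DMSO. Over all arrays SPG11 ran from 117 to 398 in 16R6-4 (median 233) and from 220.23 to 1036 in A375 (median 499), with a difference of -1.31 with DMSO that shrank to -0.33 in the treatment where it was smallest. SPPL2A, an intramembrane protease, had 398 and 533 in 16R6-4 and 899.55, 954 and 685 in A375 with DMSO, and averaged -0.98 ± 0.08. Its lines were separate in each treatment although the ranges over all arrays (388 to 666 in 16R6-4 and 655 to 1771 in A375) overlapped. ANXA2, a calcium-dependent membrane-binding protein, had 12753 and 12797 in 16R6-4 and 11435, 12038 and 14315 in A375 with DMSO. The 16R6-4 arrays lay within the A375 range there, and ANXA2 was 0.03 with DMSO, yet -0.64 ± 0.06 over the treatments, with medians of 13623 in 16R6-4 and 24014 in A375. CTSH, which encodes the lysosomal protease cathepsin H, was likewise nearer to 0 with DMSO (-0.45) than over the treatments (-1.06 ± 0.10), and reached -2.001 in its lowest treatment.

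The other genes of this group had averages from -0.70 to -0.10. VPS13C, which moves lipids between membranes, averaged -0.70, the secretory carrier protein gene SCAMP2 -0.62, and RAB11A, the GTPase of recycling endosomes, -0.56 ± 0.05. RAB11A signals were 1566 to 2177 in 16R6-4 and 2249.56 to 3049.87 in A375, with no overlap. Another RAB11A probe set, with a mean signal of 339, gave 0.08 over the treatments, and a dimmer one -0.59. ADAM10, which sheds ectodomains of membrane proteins, averaged -0.33, TM2D3 -0.27, and CLN6, needed for export of lysosomal enzymes from the endoplasmic reticulum, -0.10.

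Of the 9 signalling genes, 8 were below 0 with DMSO and 7 over the treatments. SMAD3, which carries the TGF-beta signal to the nucleus, had 298 and 276 in 16R6-4 and 499.85, 490.36 and 538 in A375 with DMSO. SMAD3 was therefore separate with DMSO at -0.82, but over the treatments its difference was 0.19 ± 0.09 and reached 0.59. Over all arrays it ran from 218 to 447 in 16R6-4 (median 279) and from 145 to 538 in A375 (median 217). GNB5, a G protein beta subunit, had 135 and 109 in 16R6-4 and 240.36, 207 and 287 in A375 with DMSO, which were separate at -0.98. GNB5 over all arrays had medians of 139 in 16R6-4 (79.8 to 258) and 224 in A375 (137 to 359), with overlap. Its average over the treatments was -0.65, but another probe set, with a mean signal of 93, gave 0.03. Dimmer GNB5 probe sets gave 0.03, -0.12 and -0.21.

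MAPK6, the atypical kinase ERK3, had 1159.72 and 1289.59 in 16R6-4 and 2130.02, 1952 and 1813 in A375 with DMSO. The lines were separate there at -0.68, and the difference averaged -0.26 over the treatments. ARPP19, which restrains the phosphatase PP2A when phosphorylated by MASTL, had 1931 and 1674 in 16R6-4 and 2689.72, 2606 and 2369.83 in A375 with DMSO. ARPP19 was separate at -0.50 with DMSO but 0.02 over the treatments. CSNK1G1, a casein kinase, had 222 and 171 in 16R6-4 and 319, 278 and 309.92 in A375, separate at -0.62. PIAS1, a SUMO ligase, had 221 and 227 in 16R6-4 and 376, 305 and 321 in A375, separate at -0.56. These last 2 genes stayed nearer to their DMSO values over the treatments, at -0.48 for CSNK1G1 and -0.43 for PIAS1.

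CSK, the kinase that inactivates SRC family kinases, had 1078 and 469 in 16R6-4 and 1061, 1015 and 1743 in A375 with DMSO. The first of these 16R6-4 values lay inside the A375 range, and the CSK difference was -0.79 with DMSO and -0.70 ± 0.14 over the treatments. RNF111, a ubiquitin ligase that promotes TGF-beta signalling, had 231 and 359 in 16R6-4 and 382, 406 and 277 in A375. TRPM7, an ion channel with a kinase domain, had 91.8 and 145 in 16R6-4 and 128, 134 and 70.68 in A375. Both overlapped between the lines, with DMSO differences of -0.28 for RNF111 and 0.11 for TRPM7, the highest of all listed genes.

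The 8 genes of RNA, translation and protein modification were all below 0 with DMSO and in 7 cases over the treatments. DPH6, the last enzyme of the diphthamide modification of elongation factor eEF2, had 212 and 259 in 16R6-4 and 597, 562 and 467 in A375 with DMSO. Over all arrays DPH6 ran from 201 to 320.24 in 16R6-4 and from 377 to 597 in A375 without overlap, and its differences across treatments kept between -1.19 and -0.81. PPIB, cyclophilin B of the endoplasmic reticulum, was also without overlap, at 3942 to 5939 in 16R6-4 and 6900.07 to 11763 in A375, with a mean difference of -0.85 ± 0.05. EIF3J, a factor loosely bound to the translation initiation complex eIF3, had 2178 and 2362 in 16R6-4 and 2537, 2436 and 2217 in A375 with DMSO. EIF3J overlapped at -0.08 with DMSO and averaged 0.27 over the treatments. The others averaged -0.75 for PARP6, -0.59 for SECISBP2L, -0.49 for SNUPN, which imports small nuclear ribonucleoproteins, -0.26 for the exosome nuclease gene DIS3L and -0.01 for EFL1, a GTPase of ribosome maturation.

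Of the 5 ubiquitin and proteasome genes, all were below 0 with DMSO. Over the treatments HERC1, a giant ubiquitin ligase, averaged -0.61, the endosomal deubiquitinase gene USP8 -0.56, the proteasome subunit gene PSMA4 -0.53, the COP9 signalosome subunit gene COPS2 -0.01 and USP3, a histone deubiquitinase, 0.26. PSMA4 had 3897 to 5226 in 16R6-4 and 5026 to 7472 in A375, separate within each treatment. In the cytoskeleton group the averages were -0.39 for MYO5A, -0.11 for the tropomyosin gene TPM1 and 0.05 for the gamma-tubulin complex gene TUBGCP4. In metabolism they were -0.90 for MPI, a mannose phosphate isomerase, 0.01 for the electron transfer flavoprotein gene ETFA and 0.25 for IDH3A of mitochondrial isocitrate dehydrogenase. Another IDH3A probe set, above the pooled median on every array, went the opposite way at -0.30.

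Other probe sets of the same genes gave a partial check on the choice of 1 probe set per gene. There were 125 probe sets naming a listed gene alone, 79 of them not chosen, and 11 genes had only 1. Of the 29 that were not chosen but exceeded the pooled median signal on every array, 21 were lower in 16R6-4 over the treatments, with a median of -0.30 across 23 genes. Of the 50 dimmer ones 43 were lower, with a median of -0.48. Over all genes, each by its chosen probe set, 65.6% were below 0, with a median of -0.25. Over genes at least as bright as the dimmest listed gene it was 48%, with a median of 0.03. No share was taken over all probe sets that were not chosen, which limits this check. Probe sets of 1 gene share its RNA and are no independent replicates.

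**Figure D3:**
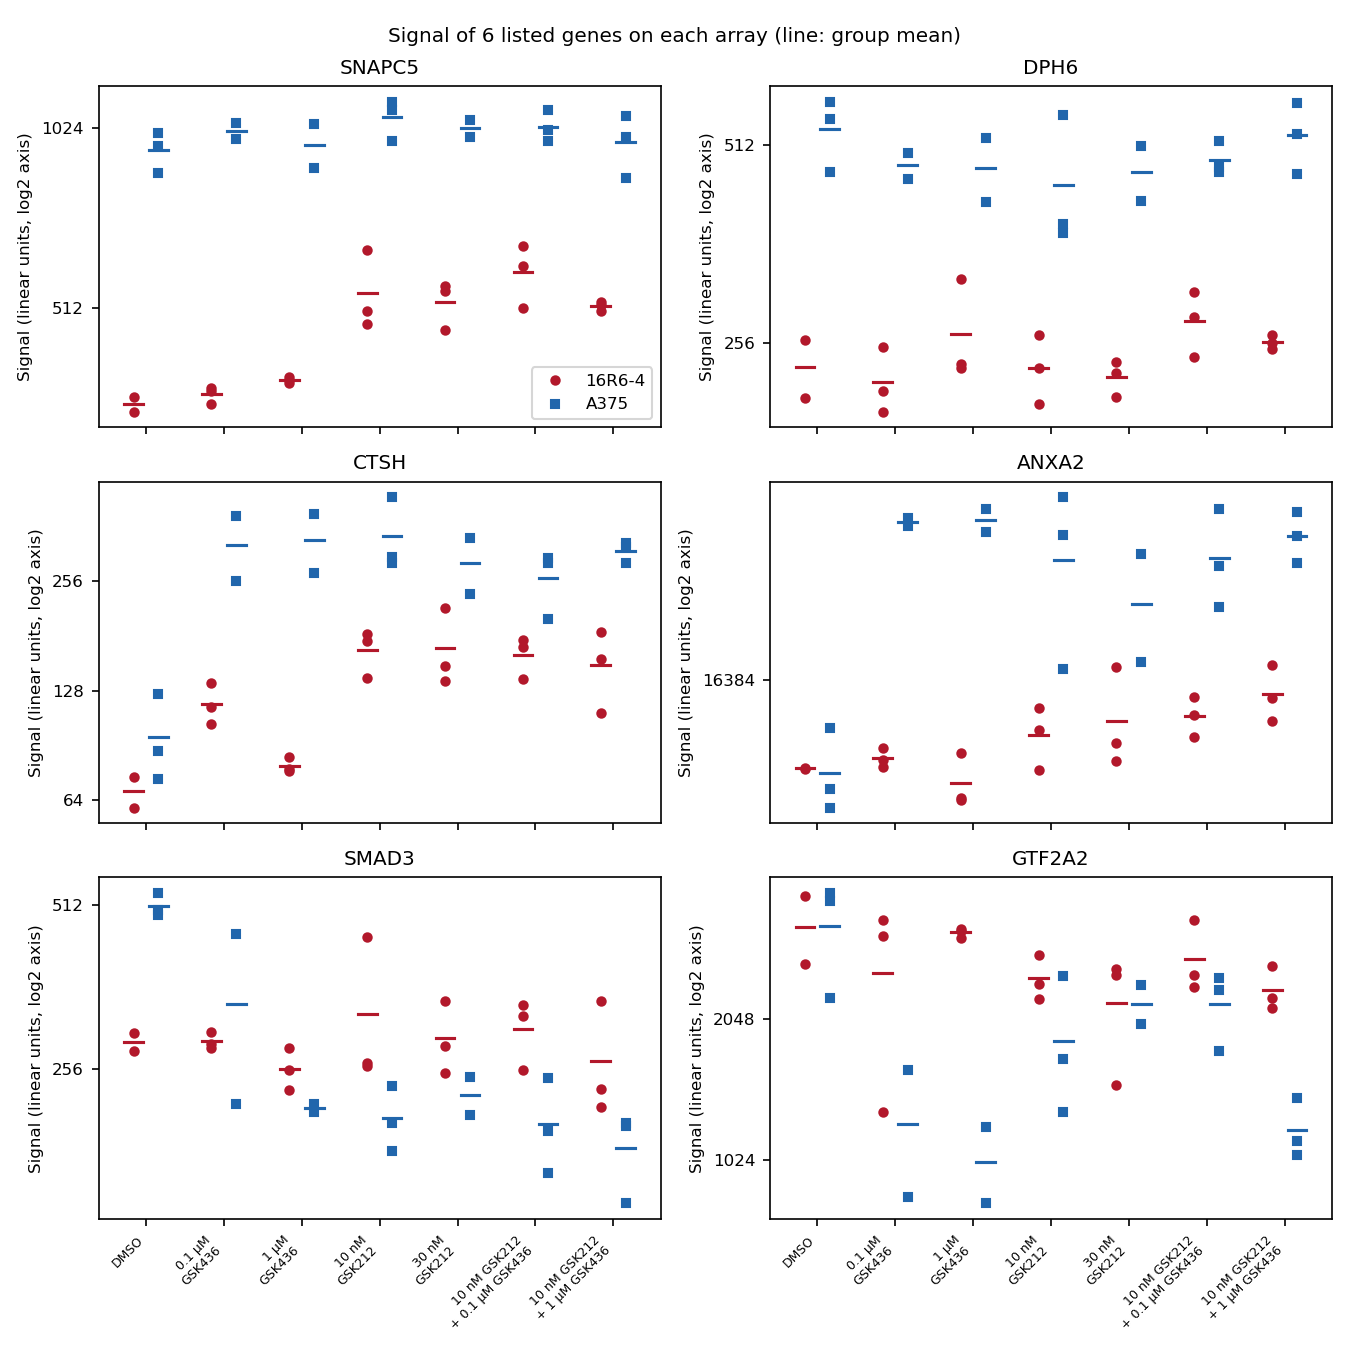
Signal of 6 listed genes on each array (log2 axis), by treatment from DMSO on the left, with 16R6-4 (red circles) left of A375 (blue squares) and the group mean as a short line. SNAPC5 and DPH6 keep the lines apart throughout; CTSH and ANXA2 were higher on the drug-treated A375 arrays than with DMSO (ANXA2 11435 to 14315 with DMSO), and the group means of SMAD3 and GTF2A2 were lower there.

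The change with drug was tested within each line. It was not itself used to choose the genes, but the same DMSO and treated arrays gave the line differences that were. The counts of calls are therefore not independent of that choice. In 16R6-4 with 1 µM GSK436, limma called 0 of the 46 genes, against 0.0886% of all genes higher and 0.00554% lower (0.0941% in all), and 1 listed gene and 590 of all genes had an unadjusted p under 0.05. With 10 nM GSK212, 4 listed genes rose and 1 fell in 16R6-4, against 3.15% of all genes higher and 1.3% lower (4.45% in all). With 10 nM GSK212 plus 1 µM GSK436, 5 rose and 3 fell, against 7.03% of all genes higher and 4.27% lower (11.3% in all). Among genes as bright as the listed ones, 0.156%, 7.69% and 19.5% were called in these 3 comparisons. Leaving out 1 array changed these counts. The 5 calls with 10 nM GSK212 became 2 without DMSO replicate 1 or without 10 nM GSK212 replicate 1, and 1 without DMSO replicate 2, and the 8 calls with both drugs became 3 and 4 without those DMSO arrays. Centring each array gave 0 higher and 1 lower with 10 nM GSK212 (0.797% and 2.81% of all genes), and 0 higher and 4 lower with both drugs (2.21% and 8.63%). Without arrays whose actin ratio exceeded 20, 1 call was left with 10 nM GSK212.

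In A375, 1 µM GSK436 raised 4 listed genes and lowered 13, against 16.2% of all genes higher and 13% lower. With 10 nM GSK212, 8 rose and 7 fell, against 12.2% and 9.15%. With both drugs at 10 nM and 1 µM, 3 rose and 13 fell, against 16.8% and 11.7%. In these 3 comparisons 17, 15 and 16 of the 46 listed genes were called in either direction, against 29.2%, 21.4% and 28.5% of all genes and 47.9%, 36% and 44.6% of genes as bright as the listed ones. Without A375 1 µM GSK436 replicate 3 the 17 calls became 9. Centring each array gave 1 higher and 30 lower with 1 µM GSK436 (4.25% and 24.3% of all genes), 2 higher and 6 lower with 10 nM GSK212 (6.51% and 10.4%), and 1 higher and 28 lower with both (4.52% and 25.7%). The median over all genes was 0.39 with 1 µM GSK436 before centring and -0.32 after it. The group means of the actin ratio were 27.9 with 1 µM GSK436, 17.8 with 10 nM GSK212 and 22.3 with both drugs, against 7.76 with DMSO. When the arrays whose ratio exceeded 20 were left out, there were 8 calls with both drugs, and 1 µM GSK436 could not be fitted, since both of its arrays were above 20. With the ratio as a covariate, 15, 15 and 14 listed genes were called with 1 µM GSK436, 10 nM GSK212 and both.

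Of the 46 genes, 2 rose in all 3 tested treatments of A375, CTSH and ANXA2, and 7 fell in all 3, namely ARPP19, CLN6, EIF3J, GTF2A2, IDH3A, SMAD3 and USP3. Over all genes 8.4% rose and 6.66% fell in all 3, and over genes as bright as the listed ones 12.8% and 13.7%. These 3 comparisons share their DMSO arrays. By role, 4, 2 and 3 of the 9 signalling genes fell in A375 with 1 µM GSK436, 10 nM GSK212 and both, and 0 rose, against the shares of all genes given above. Of the 10 genes of membrane traffic, lysosome and proteolysis, 3, 4 and 3 rose and 1, 1 and 2 fell in the same comparisons. In 16R6-4 no listed gene was called in all 3, against 0.0443% of all genes higher and 0% lower. Whether a gene's change differed between the lines was not tested.

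CTSH was the listed gene with the largest rise in A375. Its signals were 271 and 393 with 1 µM GSK436 and 72.92, 87.41 and 125 with DMSO in A375, a rise of 1.78 ± 0.27 (adjusted p = 7.79e-06). With 10 nM GSK212 they were 436, 299 and 288, a rise of 1.82 ± 0.24 (adjusted p = 6.76e-07), and with both drugs 327, 319 and 287, a rise of 1.71 ± 0.24 (adjusted p = 1.77e-06). Every treated A375 array was above every DMSO array. In 16R6-4 CTSH had 183, 175 and 139 with 10 nM GSK212 and 74.08 and 60.92 with DMSO, a rise of 1.26 ± 0.27 (adjusted p = 0.00377). With both drugs it had 156, 111 and 185, a rise of 1.10 ± 0.27 (adjusted p = 0.00563). The groups did not overlap in 16R6-4 either, but both calls were lost on centring, where the values were 0.80 and 0.65, and without DMSO replicate 2, where they were 1.12 and 0.97, and the second also on quantile normalization, at 0.79.

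ANXA2 had 26604 and 24889 with 1 µM GSK436 and 11435, 12038 and 14315 with DMSO in A375, a rise of 1.04 ± 0.17 (adjusted p = 2.44e-05). With both drugs it had 24615, 26341 and 22832, a rise of 0.97 ± 0.15 (adjusted p = 9.8e-06). Treated and DMSO arrays were separate, although centring reduced these rises to 0.32 and 0.27 and ended both calls. SCAMP2 had 802 and 794 with 1 µM GSK436 and 352, 489 and 559 with DMSO in A375, a rise of 0.80 ± 0.27 (adjusted p = 0.0266). That call was lost on centring (0.08), with the mean of all probe sets (0.57), with the actin ratio as a covariate (0.51), without DMSO replicate 1 (0.61) and without either treated array (0.79 and 0.80).

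VPS13C had 282, 370.1 and 569 with 10 nM GSK212 and 203, 214 and 142 with DMSO in A375, a rise of 1.08 ± 0.25 (adjusted p = 0.00159) without overlap. With both drugs in A375 it had 273, 346 and 372, a rise of 0.82 ± 0.25 (adjusted p = 0.0131). In 16R6-4 VPS13C had 306, 311 and 296 with both drugs and 128 and 142 with DMSO, a rise of 1.16 ± 0.28 (adjusted p = 0.0046). On centring the 3 values fell to 0.78, 0.12 and 0.70 and no longer passed the test. The A375 call with both drugs also ended without treated replicate 3 (0.73), DMSO replicate 3 (0.64) or the arrays of high actin ratio (0.91), and the 16R6-4 call without DMSO replicate 1 (1.09) or with the mean of all probe sets (0.58). MPI had 431, 392 and 327 with 10 nM GSK212 and 198, 173 and 249 with DMSO in A375, a rise of 0.89 ± 0.23 (adjusted p = 0.00481) that was lost on centring (0.59).

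SPG11 had 398, 392 and 373 with both drugs and 163 and 171 with DMSO in 16R6-4, a rise of 1.1995 ± 0.34 (adjusted p = 0.0156). The groups were separate, but the call ended on centring (0.74), with the mean of all probe sets (0.41) and without either DMSO array (1.17 and 1.23). TPM1, which encodes an actin-binding tropomyosin, had 5152, 5228 and 5166 with 10 nM GSK212 and 3161 and 3254 with DMSO in 16R6-4, a rise of 0.69 ± 0.12 (adjusted p = 0.000376). Its call was lost on centring (0.24) and with the mean of all probe sets (0.43). TCF12 had 895, 942 and 825 with 10 nM GSK212 and 547 and 562 with DMSO in 16R6-4, a rise of 0.67 ± 0.18 (adjusted p = 0.0272), which was lost in the settings that also ended TPM1, at 0.22 and 0.66, and in 6 others, with values from 0.63 to 0.76.

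SMAD3 fell in A375 under each tested treatment. Its signals were 221 and 213 with 1 µM GSK436 and 499.85, 490.36 and 538 with DMSO, a change of -1.22 ± 0.25 (adjusted p = 0.000395). With 10 nM GSK212 they were 238, 204 and 181, a change of -1.29 ± 0.23 (adjusted p = 4.59e-05), and with both drugs 204, 201 and 145, a change of -1.48 ± 0.23 (adjusted p = 5.51e-06). No treated array reached the DMSO range. With the mean of all probe sets the change with 1 µM GSK436 was -0.49 and no longer passed the test. In 16R6-4 the SMAD3 changes were -0.17, 0.12 and -0.14 in these 3 treatments, with adjusted p-values of 1, 0.886 and 0.813.

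GTF2A2 had 1202.5 and 829 with 1 µM GSK436 and 3636, 3789 and 2269 with DMSO in A375, a change of -1.65 ± 0.31 (adjusted p = 0.000134). With both drugs it had 1049, 1391 and 1125, a change of -1.42 ± 0.28 (adjusted p = 0.000199). IDH3A had 281 and 258 with 1 µM GSK436 and 860.31, 867 and 619 with DMSO in A375, a change of -1.51 ± 0.28 (adjusted p = 9.21e-05). With both drugs IDH3A had 351.03, 339 and 254, a change of -1.30 ± 0.25 (adjusted p = 0.000128). All 4 of these comparisons were without overlap between treated and DMSO arrays.

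ARPP19 had 1346, 1405 and 1543 with 10 nM GSK212 and 2689.72, 2606 and 2369.83 with DMSO in A375, a change of -0.84 ± 0.13 (adjusted p = 5.76e-06). In 16R6-4 with both drugs it had 1186, 1231 and 1179, against 1931 and 1674 with DMSO, a change of -0.58 ± 0.14 (adjusted p = 0.00483). The 16R6-4 call ended without DMSO replicate 1 (-0.48) and with the mean of all probe sets (-0.32). EIF3J had 1349.52, 1384.5 and 1350.35 with both drugs and 2178 and 2362 with DMSO in 16R6-4, a change of -0.74 ± 0.15 (adjusted p = 0.000625), which ended with the mean of all probe sets (-0.56). Treated and DMSO arrays were separate for both genes.

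CLN6 had 142, 102 and 128 with 10 nM GSK212 and 226, 237 and 287 with DMSO in A375, a change of -1.001 ± 0.20 (adjusted p = 0.000209) that was lost with the mean of all probe sets (-0.47). In 16R6-4 it had 103, 115 and 100.22 with 10 nM GSK212 and 199 and 171 with DMSO, a change of -0.78 ± 0.22 (adjusted p = 0.0319). With both drugs it had 133, 98.42 and 109, a change of -0.70 ± 0.22 (adjusted p = 0.034). Both 16R6-4 calls of CLN6 ended without either DMSO array, with the fit of only the groups compared and with the mean of all probe sets (-0.19 and -0.50), although the direction did not turn in any setting.

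**Figure D4:**
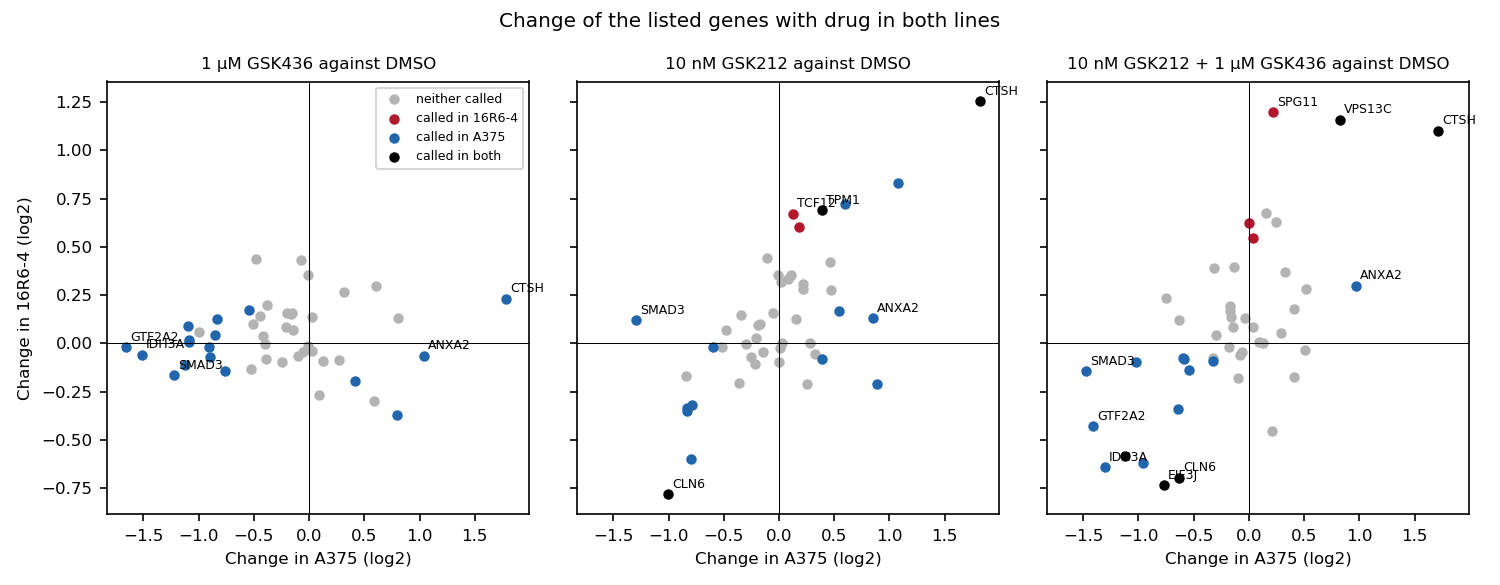
Change with drug against DMSO (log2) of the 46 listed genes in 16R6-4 (vertical) and A375 (horizontal) for 1 µM GSK436, 10 nM GSK212 and both, with colours for genes called in neither line, 16R6-4, A375 or both. With 1 µM GSK436 the points lie within -0.37 to 0.44 in 16R6-4 and spread from -1.65 to 1.78 in A375.

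The genes of protein partners on other chromosomes were compared between the lines, since the list did not use them. The list of 75 partners of 23 listed genes was written with earlier results of these data known. Of the 71 partners measured, 34 were higher in 16R6-4 over the 7 treatments (47.9%) and 22 were lower (31%), against 21.2% higher and 32% lower over all genes, and 39.4% and 35.5% over genes as bright as the listed ones. Their median difference was 0.20, against -0.25 over all genes and 0.03 over the brighter ones. In the DMSO groups alone, with fewer arrays, 2 partners were called higher and 3 lower, against 2.25% and 3.26% of all genes. Centring each array changed the split to 48 higher and 5 lower, against 33.9% of all genes higher and 12.9% lower under that scaling. The partners given below beyond the 4 largest in each direction were named after their values were seen.

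Partners of 1 protein did not move as a block. SNAPC1, another subunit of the SNAPC5 complex, had a median of 3498 in 16R6-4 (1898 to 6649), against 772 in A375 (469.66 to 1673). This was a difference of 2.08 ± 0.07 (adjusted p = 2.8e-22) with separate ranges, and SNAPC3 was also higher, by 0.78. SNAPC2 at -0.02 (adjusted p = 0.93) and SNAPC4 at 0.39 (adjusted p = 0.0842) did not pass the test. Of 5 other alpha subunits of the proteasome measured beside PSMA4, 4 were higher, PSMA3 by 1.12 ± 0.18 (adjusted p = 3.01e-06), and PSMA7, on chromosome 20, was lower at -0.53, a call lost on centring (-0.13). The PSMA3 ranges overlapped, at 794 to 4811 in 16R6-4 and 387 to 3476 in A375, and the call was lost with the mean of all probe sets (0.23). With DMSO alone the differences were 1.55 for SNAPC1, 0.51 for SNAPC3, 0.32 for PSMA3 and -0.51 for PSMA7.

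Around the signalling genes, MASTL, the kinase of ARPP19, was higher by 0.97 ± 0.11 (adjusted p = 5.19e-09), with 96.26 to 283 in 16R6-4 and 62.38 to 335 in A375, which overlapped. The SRC family genes YES1, FYN and LYN, whose kinases CSK inactivates, were higher by 0.92, 0.74 and 0.51, and PAG1, which recruits CSK to the membrane, by 0.94 ± 0.26 (adjusted p = 0.00219), with 5.76 to 119.86 in 16R6-4 and 1.27 to 115 in A375. SRC itself at 0.28 did not pass the test (adjusted p = 0.12), though it did after quantile normalization (0.48) and centring (0.67). SMAD2 and SMAD4, both on chromosome 18, were higher by 0.28 and 0.77. The melanosome adaptor gene MLPH, a partner of MYO5A, was higher by 0.81 (adjusted p = 3.09e-07).

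Some partners were lower together with a listed gene. S100A10, which forms a tetramer with ANXA2, had a median of 5469 in 16R6-4 (3401 to 8154) and 11595 in A375 (6051 to 13834), a difference of -1.01 ± 0.05 (adjusted p = 3.89e-18) with some overlap. P3H1 and CRTAP, which form the collagen prolyl hydroxylation complex with PPIB, differed by -0.44 and -0.52, and both calls were lost on centring (-0.05 and -0.12). TSPAN33, a partner of ADAM10, which was itself below 0 at -0.33, differed by -0.88 ± 0.29 (adjusted p = 0.0104) and lost its call on centring (-0.48) and quantile normalization (-0.53). TSPAN33 signals were dim, at 1.56 to 54.8 in 16R6-4 and 2.92 to 85.02 in A375. Of the other ADAM10 partners, TSPAN5 and TSPAN14 were called higher, by 0.77 and 0.20. TSPAN15 at -0.43 did not pass the test (adjusted p = 0.187). Other partners were lower where the listed gene was not. ETFB, the other subunit of electron transfer flavoprotein, differed by -1.19 ± 0.09 (adjusted p = 2.72e-13), with medians of 673 in 16R6-4 and 1431 in A375, while ETFA differed by 0.01. IDH3B and IDH3G differed by -0.78 and -0.56, of which IDH3G was lost on centring (-0.16), and IDH3A by 0.25. Another IDH3A probe set, with a mean signal of 343 against 472 for the chosen one, gave -0.30, and a much dimmer one 0.21. The contrast with IDH3A therefore depends on the probe set. TUBGCP6 of the gamma-tubulin complex differed by -1.39 ± 0.23 (adjusted p = 3.02e-06), with medians of 31.4 in 16R6-4 and 79.4 in A375. The TUBGCP6 difference with DMSO alone was -0.14. The listed gene TUBGCP4 averaged 0.05, but its other, dimmer probe set gave -0.21. Of its other partners, TUBGCP3 and TUBG1 were called higher, at 0.91 and 0.40, and TUBGCP2 and NEDD1 lower, at -0.55 and -0.20. On centring the TUBGCP2 call was lost (-0.15) and NEDD1 turned to 0.20. With DMSO the differences were -0.64 for S100A10, -0.29 for P3H1, -0.27 for CRTAP and -1.75 for TSPAN33. For ETFB, IDH3B and IDH3G they were -0.89, -0.67 and -0.17.

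**Figure D5:**
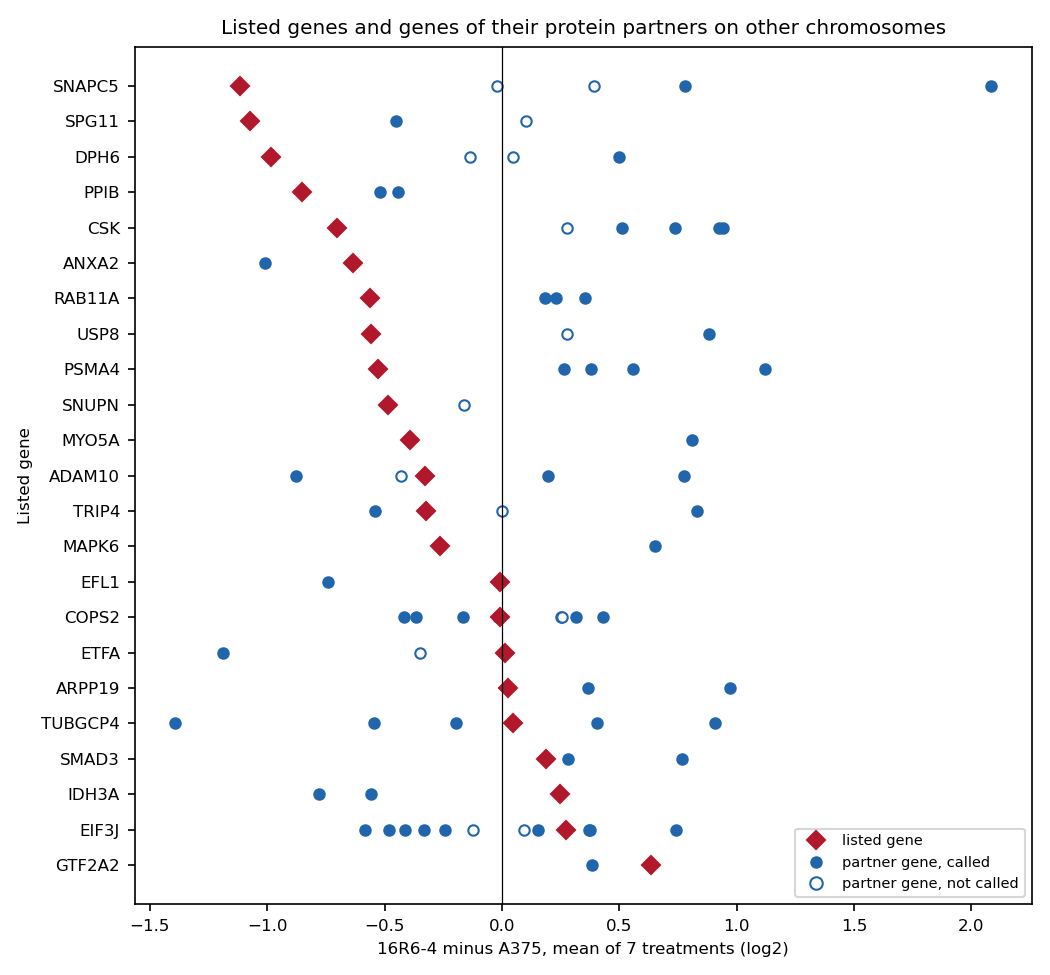
Line difference over the 7 treatments (16R6-4 minus A375, log2) of 23 listed genes (red diamonds, ordered from the lowest at the top) and of the 71 measured partner genes on other chromosomes (blue circles, filled where limma called a difference). Partners lie on both sides of 0 for low and high listed genes alike, from -1.39 for TUBGCP6 to 2.08 for SNAPC1.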

How the data were processed

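RNA was hybridised to 38 one-colour human expression arrays. The submitters' processing notes name MAS5, without a version, for the linear signal intensity values that the authors deposited; no background correction was added. The deposited intensity table held 54675 probe sets, of which 41097 named 1 gene. Gene names came from the platform annotation, checked against RefSeq (41043 matched).

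Groups were taken from the labels. Probe sets above the pooled median of 34.88 on at least 2 arrays were kept (35888), and the one with the highest mean log2 signal stood for each of 18063 genes. To each signal 2.8 was added (a low percentile of the whole table) before log2 was taken, and limma 3.58.1 (R 4.3.3; eBayes with trend, 24 residual degrees of freedom) fitted 14 group means. A gene was called at a Benjamini-Hochberg adjusted p under 0.05 over all genes, and errors after ± are standard errors. The fit was tested on simulated data. Promoter letters and figures were handled in Python 3.11.15 with pandas 2.3.3, numpy 2.4.6 and matplotlib 3.10.9. The files' genome build is not given in the sources used here, so RefSeq served only for names, gene order and promoter sequence.

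The listed genes, their roles and the partner genes were chosen with earlier results of these data known. Named genes followed a rule: signals by array for the 6 listed genes with the largest and the 4 with the smallest difference with DMSO, for the signalling genes, and for up to 3 called genes in each direction of each drug comparison with separate arrays; up to 4 other genes of chromosome 15 and up to 4 called partners in each direction. Replicate numbers are shared between groups. The deviations of same-numbered drug and DMSO arrays of a line correlated with r of -0.269 to 0.0836. Arrays of different number were not compared, so whether the numbers mark a shared culture or run is not known. The main fit did not pair the arrays.

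Alternatives were quantile normalization, centring on the array median, other pseudocounts (none, 9.88) and filters (none, 128.16 on at least 2 arrays), averaging a gene's probe sets, a block for the replicate number, eBayes with no trend, a fit restricted to the groups being compared, an absolute log2 change of at least 1, leaving out each array and, added after seeing the data, the actin ratio as a covariate or a limit.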

Additional observations from a re-analysis of the deposited data

Results flagged for a closer look

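With 1 µM GSK436 against DMSO, every treated array of 1 line moved one way and every treated array of the other line the opposite way for 3 listed genes. PSMA4 changed by -0.0912 in 16R6-4 and 0.124 in A375, TPM1 by 0.154 in 16R6-4 and -0.163 in A375, and PPIB by -0.196 in 16R6-4 and 0.414 in A375, all on the log2 scale. Of these changes limma called only that of PPIB in A375 (adjusted p = 0.0242). The share of all genes with such opposite moves is not given here, so nothing is read from the count. The difference between the lines was not tested.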

How the results depend on the processing

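For the drug changes and partner differences of the genes named by rule, 1717 values from other settings kept the call, 59 lost it and 0 turned direction; averages between lines of listed genes that turned are named with the results for the scalings, probe sets, block and left-out arrays. Calls were lost most often on centring, with the mean of all probe sets or without a 16R6-4 DMSO array. With each array centred on its median, the median difference of the listed genes was -0.2483 with DMSO and -0.05488 over 7 treatments; calls in 16R6-4 were 1 with 10 nM GSK212 and 4 with both drugs, and in A375 31, 8 and 29 with 1 µM GSK436, 10 nM GSK212 and both. The mean of all probe sets gave 2 calls in 16R6-4 with 10 nM GSK212, where 2.02% of all genes were higher and 0.98% lower. With both drugs it gave 2 in 16R6-4 (5.23% and 3.15% of all genes) and 10 in A375 (14.8% and 8.72%). Requiring an absolute log2 change of at least 1 left 1 and 3 calls in 16R6-4, 9, 4 and 6 in A375, and 5 of 56 partner calls, as fewer genes can pass. The fit of only the groups compared gave 8 calls in A375 with 10 nM GSK212, from fewer arrays. Without the 15 arrays with an actin ratio above 20 (added after seeing the data), there was 1 call in 16R6-4 with 10 nM GSK212 and 8 in A375 with both drugs, and A375 with 1 µM GSK436 and the means over 7 treatments could not be fitted. For centring, the mean of probe sets and the actin limit the cause was not tested. Leaving out 1 array gave -0.5653 to -0.4898 with DMSO and -0.4806 to -0.4135 over 7 treatments, 0 calls in 16R6-4 with 1 µM GSK436, 1 to 6 with 10 nM GSK212 and 3 to 8 with both, 9 to 22, 10 to 16 and 11 to 18 in A375, and 55 to 59 partner calls; a lone array was then assumed to vary like other groups. With the replicate number as a block, the medians were -0.52 and -0.4465 and the counts 0, 5, 8, 19, 14, 16 and 56, so that no call count changed by over 1.5 times. For the absolute change, the groups compared, the actin settings, left-out arrays and the block, no shares of all genes are given. Counts from these settings, here and above, show only how the calls depend on the setting. Detection calls were not used here, so how far dim signals such as those of PAG1 stood above background is not known.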
